A study of Mus musculus with 6 samples.

Results

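The genes described here are 10 glutathione and antioxidant genes that the transcription factor NRF2 switches on under oxidative stress, namely *Gclc*, *Gclm*, *Slc7a11*, *Gsr*, *G6pdx*, *Nqo1*, *Hmox1*, *Cat*, *Prdx1*, and *Srxn1*. The rule names these genes and sets no cutoff on their values, although results of these data were already known when it was written. Each was found in the table of read counts through the name that GENCODE gives its Ensembl identifier. All 10 were among the 16330 genes, of 53715 in the table, that had enough counts to be tested. The data are RNA-Seq of the cerebellum of 3 control and 3 *Slc39a8*-NSKO mice, all male, and 4 weeks old. The labels give the strain as C57BL/6, and the study's methods give the floxed and the Cre line as C57BL/6J. In *Slc39a8*-NSKO mice a Cre recombinase under the *Synapsin I* promoter deletes the floxed alleles of *Slc39a8*, which encodes an importer of manganese, zinc, and iron, in neurons. Glia, vessels, and other cells that do not use this promoter keep the gene. The sample labels call the control mice WT, while the study's text calls its controls wild-type in some experiments and *Slc39a8* fl/fl in another, and the counts do not settle which they were. The labels name no treatment. RNA came from the whole cerebellum, so that a change of a transcript within a cell type and a change in the number of those cells cannot be told apart.

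NRF2, encoded by *Nfe2l2*, is held in the cytoplasm and marked for destruction by KEAP1. Oxidants and electrophiles modify KEAP1, after which NRF2 enters the nucleus, pairs with a small MAF protein, and binds antioxidant response elements in its target genes. These targets make and recycle glutathione, supply NADPH, and remove peroxides and quinones. In the brain this program is known to be more active in astrocytes than in neurons. Manganese belongs to the same field of biology because the superoxide dismutase of mitochondria, SOD2, needs it as a cofactor. The comparison of the genotypes therefore asks whether transcripts of the oxidative stress response differed in the cerebellum of mice with this neuronal deletion. The study names possibly uneven expression of this Cre across brain regions as a limitation. How complete the deletion was in cerebellar neurons was not measured here.

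The core of the antioxidant response element, TGACNNNGC, was searched on both strands of the RefSeq promoters of GRCm38.p6, from 250 bases before to 50 bases after the start of each gene. Promoter sequences of 7 of the 10 genes were used, and the promoters of *Gclc*, *Gsr*, and *Hmox1* were not analysed here. A core was found in 4 of these 7 (*Gclm*, *Prdx1*, *Srxn1*, and *G6pdx*), and in 3781 (14%) of the 27025 genes with a promoter. The windows of *Nqo1*, *Cat*, and *Slc7a11* did not contain these letters. The stretches around the 4 cores are shown because the cores are the one feature of the promoters that the NRF2 program is named for. They are written 5′ to 3′ on the strand of the gene, with the core in capitals, and each core lies on the opposite strand and so reads GCNNNGTCA here.
*Gclm*, chr3:122245393-122245461, plus strand: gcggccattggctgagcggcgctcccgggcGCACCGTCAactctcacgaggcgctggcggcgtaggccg
*Prdx1*, chr4:116685436-116685504, plus strand: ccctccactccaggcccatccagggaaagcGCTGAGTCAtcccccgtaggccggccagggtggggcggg
*Srxn1*, chr2:152105542-152105570, plus strand: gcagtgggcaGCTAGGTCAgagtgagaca
*G6pdx*, chrX:74428919-74428947, minus strand: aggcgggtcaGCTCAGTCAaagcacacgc
The core of *Prdx1* also contains TGAGTCA, the letters of an AP-1 site, and the other 3 do not. The cores of *Gclm*, *Prdx1*, and *G6pdx* begin upstream of the RefSeq start, and that of *Srxn1* begins downstream of it. A match of letters describes the window only, and the binding of NRF2 was not measured.

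The estimated counts on genes summed to between 14431260 and 20844267 per mouse. For *Slc39a8* itself, control mice 1 to 3 had 99, 46, and 44 counts and *Slc39a8*-NSKO mice 38, 40, and 41, without overlap (log2 fold change -0.83, standard error 0.237, edgeR quasi-likelihood adjusted p = 0.534). Markers of granule cells and of Purkinje cells, the defining neurons of the cerebellum, were abundant in every mouse, with at least 2516 counts for each of the 12 markers. In the test across all 16330 genes, 16 genes (0.098%) had an adjusted p below 0.05, with 12 (0.0735%) lower and 4 (0.0245%) higher in *Slc39a8*-NSKO cerebellum.

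None of the 10 antioxidant genes was among them. In edgeR's quasi-likelihood test their adjusted p values lay between 0.911 and 0.998, and their log2 fold changes (*Slc39a8*-NSKO over control) lay between -0.03 for *Slc7a11* and 0.18 for *Nqo1*. The median log2 fold change was 0.04 over the 10 genes and 0.0011 over all genes tested. A total of 7 genes had a higher and 3 a lower mean in *Slc39a8*-NSKO mice. Over all 16330 genes tested, the log2 fold change was above 0 in 8243 and below 0 in 8087. In *Nqo1*, *Gclc*, and *G6pdx* every *Slc39a8*-NSKO mouse lay above every control mouse, and in no member did every one lie below, while among all genes tested 10.3% did not overlap, 5.07% above and 5.26% below. Of the 10, *G6pdx* was the 1 gene with an unadjusted p below 0.05 in edgeR's test, against 5.39% of all genes tested (2.25% higher and 3.14% lower), and with DESeq2 0 members passed and 0 had an unadjusted p below 0.05.

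**Figure D1:**
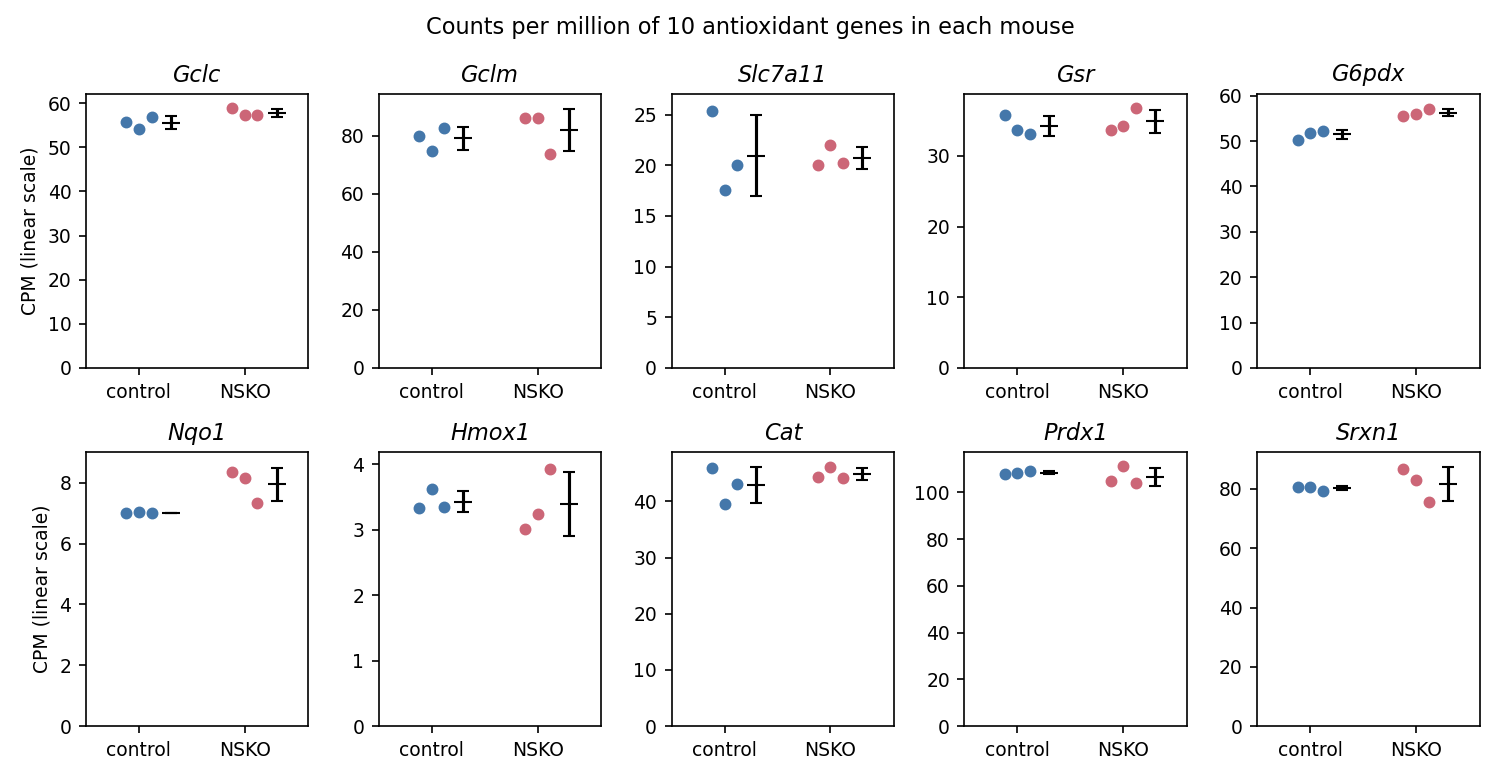
CPM (counts scaled to a common library size, linear axis from 0) of each antioxidant gene in the 3 control mice (blue points) and the 3 *Slc39a8*-NSKO mice (red points), in the order of mice 1 to 3, with the mean and SD beside each group. The points of the genotypes are apart in *Gclc*, *G6pdx*, and *Nqo1* and overlap in the other 7 genes.

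Glutathione is built from cysteine, which neural cells obtain in part by importing cystine, and glutamate-cysteine ligase carries out the step that limits its rate. *Gclc* encodes the catalytic subunit of this enzyme and is annotated on the plus strand of chromosome 9 (77754535 to 77794485 in GRCm38, the build of all positions here). Its level was 55.6, 54.1, and 56.9 CPM in control mice 1 to 3 and 58.9, 57.4, and 57.2 CPM in *Slc39a8*-NSKO mice 1 to 3. The genotypes did not overlap, but the highest control mouse and the lowest *Slc39a8*-NSKO mouse were closer than the SD of either group. The log2 fold change of *Gclc* was 0.06 (standard error 0.0584, edgeR quasi-likelihood adjusted p = 0.994).

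*Gclm* encodes the modifier subunit, which raises the affinity of the enzyme for its substrate, and is annotated on the plus strand of chromosome 3 from 122245557 to 122270732. It was at 79.8, 74.9, and 82.8 CPM in control mice 1 to 3 and at 86.2, 86.1, and 73.8 CPM in *Slc39a8*-NSKO mice 1 to 3. *Slc39a8*-NSKO mouse 3 had the lowest value of all 6 mice and the other *Slc39a8*-NSKO mice the highest, so that the genotypes overlapped (log2 fold change 0.05, standard error 0.0702). The counts of *Gclm* were not whole in 5 of the 6 mice. The noncoding gene *Gm17494* overlaps it on the other strand with 5.85 to 8.13 CPM, and the pseudogene *Gm6061* inside it is listed at 0 in every mouse. In control mouse 3 the count of *Gclm* was whole (1288) and that of *Gm17494* was not (90.51). Which genes shared reads with *Gclm* was not tested. The ratio of *Gclc* to *Gclm* per length averaged 1.17 ± 0.0298 over control mice and 1.18 ± 0.098 over *Slc39a8*-NSKO mice (SD, n = 3 each, exact two-sided permutation test, p = 1).

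*Slc7a11* encodes the cystine importer xCT and is annotated on the minus strand of chromosome 3 from 49892526 to 50443614. It was at 25.3, 17.5, and 20.05 CPM in control mice 1 to 3 and at 20.1, 21.97, and 20.2 CPM in *Slc39a8*-NSKO mice 1 to 3. Control mouse 1 was the highest and control mouse 2 the lowest of all mice, so that the values of *Slc39a8*-NSKO mice fell inside the control range. The log2 fold change of *Slc7a11* was -0.03 (standard error 0.116, edgeR quasi-likelihood adjusted p = 0.997), and it was 0.14 without control mouse 1 and -0.14 without control mouse 2.

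*Gsr* encodes glutathione reductase, which uses NADPH to return oxidized glutathione to its reduced form, and is annotated on the plus strand of chromosome 8 from 33652523 to 33698163. It was at 35.8, 33.7, and 33.2 CPM in control mice 1 to 3 and at 33.7, 34.2, and 36.7 CPM in *Slc39a8*-NSKO mice 1 to 3. The highest value belonged to *Slc39a8*-NSKO mouse 3 and the next to control mouse 1 (log2 fold change 0.03, standard error 0.0696).

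*G6pdx* encodes glucose-6-phosphate dehydrogenase, the entry enzyme of the pentose phosphate pathway and a main source of NADPH, and is annotated on the minus strand of the X chromosome from 74409483 to 74429194. It was at 50.3, 51.9, and 52.3 CPM in control mice 1 to 3 and at 55.6, 56.1, and 57.2 CPM in *Slc39a8*-NSKO mice 1 to 3. Every *Slc39a8*-NSKO mouse lay above every control mouse, with means of 51.5 ± 1.06 and 56.3 ± 0.792 CPM (SD, n = 3 each). *Slc39a8*-NSKO mice averaged 109% of control. The log2 fold change was 0.13 (standard error 0.0586). In edgeR's quasi-likelihood test its unadjusted p was 0.0456, rank 815 among the 16330 genes, and its adjusted p 0.911. The unadjusted p was between 0.0558 and 0.116 with any 1 mouse left out, and 0.0894 with DESeq2. *Ikbkg* overlaps *G6pdx* on the opposite strand, and whether the strand was used in counting is not known. The counts of *G6pdx* and of *Ikbkg* were whole in every mouse, so that they show no reads divided between the 2 genes. *Ikbkg* was at 37.9 ± 1.28 CPM in control and 36.8 ± 2.28 CPM in *Slc39a8*-NSKO mice (SD, n = 3 each), with overlapping genotypes. *G6pd2*, an autosomal copy of the gene, was listed at 0 counts in every mouse.

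*Nqo1* encodes a quinone reductase that is widely used as a readout of NRF2 activity, and is annotated on the minus strand of chromosome 8 from 107388225 to 107403206. It was at 6.998, 7.023, and 7.004 CPM in control mice 1 to 3 and at 8.36, 8.16, and 7.33 CPM in *Slc39a8*-NSKO mice 1 to 3. It had between 101 and 167 counts in a mouse. The genotypes did not overlap, and the control mice agreed more closely (SD 0.0134 CPM) than the counting error of a single library, which was 0.65 CPM on average. The log2 fold change of *Nqo1* was 0.18 (standard error 0.127, unadjusted p = 0.173, edgeR quasi-likelihood adjusted p = 0.994), the largest of the 10.

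*Hmox1* encodes heme oxygenase 1, which breaks heme down to biliverdin, iron, and carbon monoxide and is strongly induced by heme and oxidants, and is annotated on the plus strand of chromosome 8 from 75093621 to 75100589. Its counts were 69, 52, and 52 for control mice 1 to 3 and 60, 63, and 74 for *Slc39a8*-NSKO mice 1 to 3, the fewest of the 10 genes. In CPM the lowest (3.004) and the highest (3.93) value both belonged to *Slc39a8*-NSKO mice, and the control mice lay between them. The log2 fold change of *Hmox1* was -0.02 (standard error 0.189). Its direction changed without mouse 2 of the control group, and also without mouse 1 or without mouse 2 of the *Slc39a8*-NSKO group, with values of 0.022, 0.067, and 0.017.

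*Cat* encodes catalase, the peroxisomal enzyme that splits hydrogen peroxide, and is annotated on the minus strand of chromosome 2 from 103453849 to 103485160. It was at 45.9, 39.5, and 43.2 CPM in control mice 1 to 3 and at 44.4, 46.1, and 44.2 CPM in *Slc39a8*-NSKO mice 1 to 3. Control mouse 1 lay among the *Slc39a8*-NSKO mice and the other control mice lay below them (log2 fold change 0.06, standard error 0.0697).

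*Prdx1* encodes a cytosolic peroxiredoxin, which reduces peroxides through a reactive cysteine, and is annotated on the plus strand of chromosome 4 from 116685544 to 116700822. It was at 108, 108, and 109 CPM in control mice 1 to 3 and at 105, 111, and 104 CPM in *Slc39a8*-NSKO mice 1 to 3. *Slc39a8*-NSKO mouse 2 lay above and the other *Slc39a8*-NSKO mice lay below all control mice (log2 fold change -0.02, standard error 0.0531). *Srxn1* encodes sulfiredoxin, which repairs peroxiredoxins whose cysteine has been overoxidized, and is annotated on the plus strand of chromosome 2 from 152105516 to 152111376. It was at 80.7, 80.5, and 79.4 CPM in control mice 1 to 3 and at 86.7, 82.9, and 75.5 CPM in *Slc39a8*-NSKO mice 1 to 3. Here too the *Slc39a8*-NSKO mice lay on both sides of the control mice (log2 fold change 0.03, standard error 0.0618), and without *Slc39a8*-NSKO mouse 1 the log2 fold change was -0.017.

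The 95% intervals of edgeR's fold changes say how large a difference these mice could have hidden. In 8 of the 10 genes, all but *Hmox1* and *Nqo1*, the interval lay between 82.5% and 119.4% of control. It ran from 90.9% to 106.5% of control for *Prdx1*, the narrowest, and from 95.4% to 113.5% for *Gclc*. For *G6pdx* it ran from 100.2% to 119.4%, and in the other 9 genes it included the control level. The widest intervals belonged to the genes with the fewest counts, from 74.6% to 131.2% for *Hmox1* and from 93.9% to 137.2% for *Nqo1*. A change of 1.5-fold in either direction therefore lay outside the interval of every member in the main fit. The intervals depend on the method and on single mice. With DESeq2 the standard error was 0.270 for *Hmox1* and 0.184 for *Nqo1*, against 0.189 and 0.127 in the main fit. Without *Slc39a8*-NSKO mouse 3 the log2 fold change of *Hmox1* was -0.13 with a standard error of 0.211. The intervals are for 1 gene at a time and are not widened for the number of genes.

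**Figure D2:**
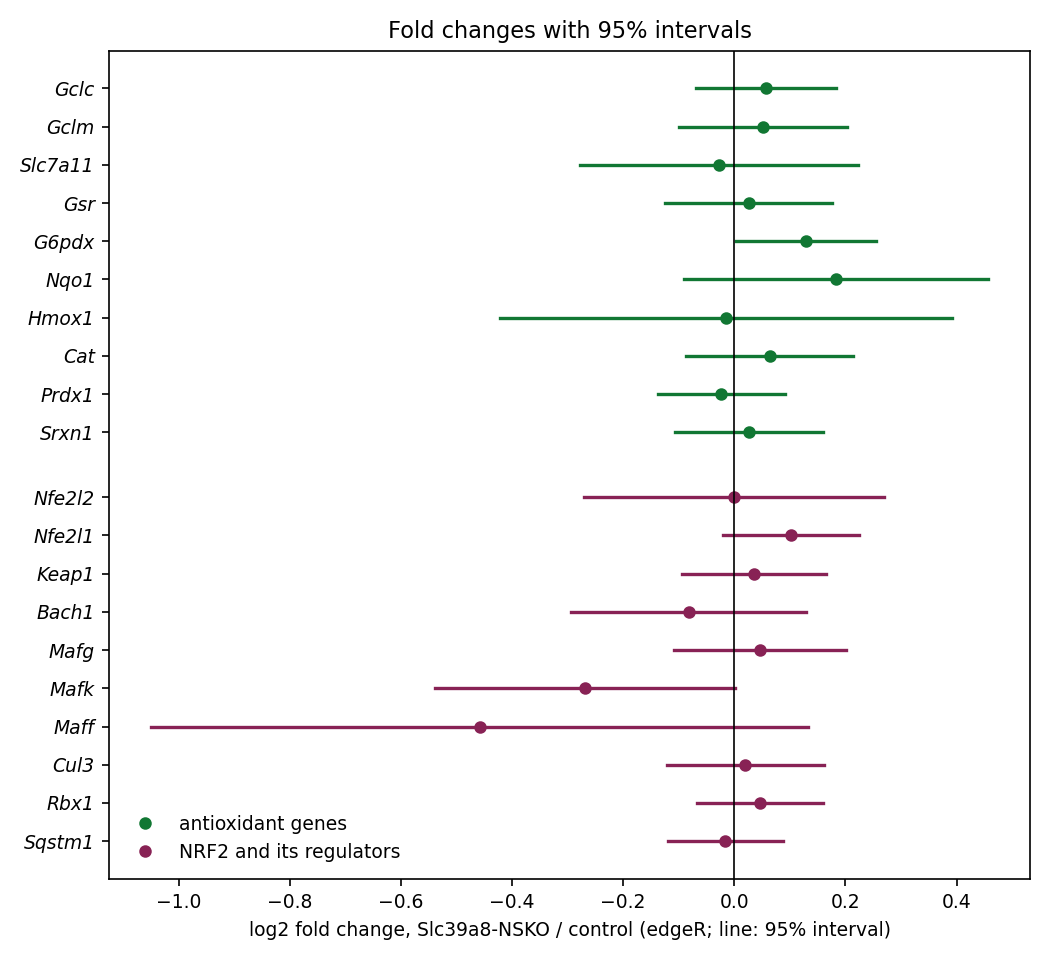
Log2 fold change (*Slc39a8*-NSKO over control, edgeR) of the 10 antioxidant genes (green) and of NRF2 and 9 genes that regulate it or act with it (purple), each with its 95% interval as a line. The interval of *G6pdx* begins just above 0, all others cross 0, and *Maff*, *Hmox1*, *Nqo1*, and *Mafk* have wide intervals.

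**Figure D3:**
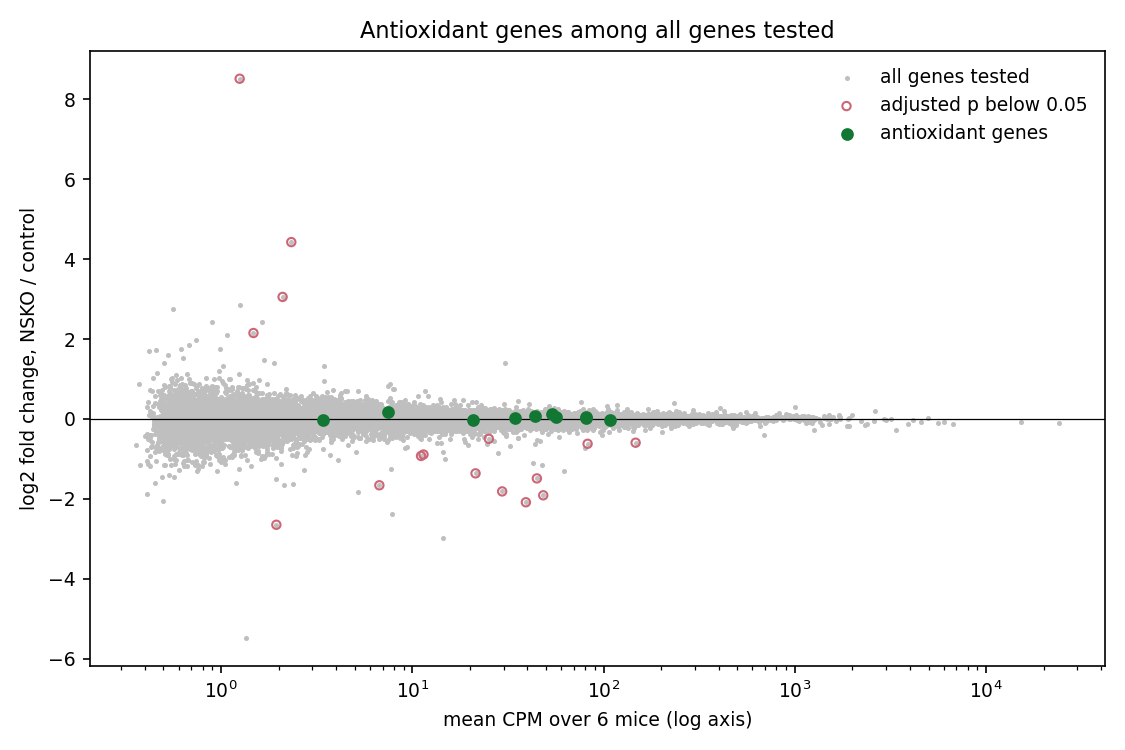
Log2 fold change against mean CPM over the 6 mice (log axis) for the 16330 genes tested, with the 16 genes past an adjusted p of 0.05 as open red circles and the antioxidant genes as green points. The antioxidant genes lie between -0.03 and 0.18, inside the band of the other genes at their level.

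Expressed per length of exon (RPKM), so that genes can be compared with each other, the mean level over the 6 mice was highest for *Prdx1* (35.3) and *Srxn1* (28.7). *G6pdx* (17.5), *Cat* (16.8), *Gclc* (15.1), *Gclm* (12.8), and *Gsr* (12.5) formed a middle group, and *Nqo1* (4.82), *Hmox1* (1.95), and *Slc7a11* (1.498) had the lowest levels. Over the 6 mice the ranges of *G6pdx* and *Cat*, of *Cat* and *Gclc*, of *Gclm* and *Gsr*, and of *Hmox1* and *Slc7a11* overlapped, and those of the other neighbours in this order did not. With the longest transcript as the length, *Slc7a11* (2.26) came before *Hmox1* (2.17), and the order of the other 8 genes was the same.

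The 10 genes did not rank the mice in one order. When the 6 mice were ranked for each gene, from 1 for the lowest to 6 for the highest CPM, the mean rank over the 10 genes was 3.3, 2.4, and 2.8 in control mice 1 to 3 and 4.1, 4.8, and 3.6 in *Slc39a8*-NSKO mice 1 to 3. *Slc39a8*-NSKO mouse 3 was highest in 3 genes (*G6pdx*, *Gsr*, and *Hmox1*) and lowest in 3 others (*Gclm*, *Prdx1*, and *Srxn1*). *Slc39a8*-NSKO mouse 1 was highest in *Gclc*, *Gclm*, *Srxn1*, and *Nqo1* and lowest in *Hmox1*. Summed over the 10 genes, the level was 492, 471, and 487 CPM in control and 502, 507, and 480 CPM in *Slc39a8*-NSKO mice. Mouse 3 of the *Slc39a8*-NSKO group lay inside the control range.

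The genes that control NRF2 were compared next, to see whether transcripts of the pathway differed above its targets. The amount of NRF2 protein and its entry into the nucleus were not measured. Of 10 such genes, 0 had an adjusted p below 0.05 in edgeR's quasi-likelihood test, against 0.098% of all genes tested. An unadjusted p below 0.05 was found in 0 of them, against 5.39%, and 0 passed with DESeq2. *Nfe2l2*, which encodes NRF2, was at 16.2 ± 2.72 CPM in control and 16.1 ± 1.28 CPM in *Slc39a8*-NSKO mice (SD, n = 3 each), with a log2 fold change whose 95% interval ran from -0.27 to 0.27. *Keap1*, its inhibitor, was at 61.8 ± 1.94 and 63.4 ± 2.70 CPM, and the interval ran from -0.09 to 0.17. *Cul3* and *Rbx1*, which encode the ubiquitin ligase that KEAP1 recruits, had log2 fold changes of 0.02 and 0.05. *Sqstm1*, whose product p62 can draw KEAP1 away from NRF2 and which is itself a target of NRF2, had a log2 fold change of -0.02. *Nfe2l1*, which encodes the related factor NRF1, was at 230 ± 15.1 CPM in control and 247 ± 6.32 CPM in *Slc39a8*-NSKO mice (SD, n = 3 each, log2 fold change 0.10, standard error 0.0567), and for *Bach1*, a repressor that competes for the same elements, the log2 fold change was -0.08 (standard error 0.098).

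The small MAF proteins are the partners that NRF2 and BACH1 need to bind DNA. *Mafg*, the most abundant of the 3 per length here (16.55 RPKM), had a value of 0.05 (log2 fold change, standard error 0.072). *Mafk* (2.35 RPKM) was at 10.02 ± 0.708 CPM in control and 8.30 ± 0.826 CPM in *Slc39a8*-NSKO mice (SD, n = 3 each), and *Maff* (0.646 RPKM) at 1.94 ± 0.271 and 1.41 ± 0.269 CPM. In *Mafk* and *Maff* all *Slc39a8*-NSKO mice lay under the lowest control mouse, 2 of 10 genes against 5.26% of all genes tested. Their log2 fold changes were -0.27 (standard error 0.126, adjusted p = 0.916) and -0.46 (standard error 0.275, adjusted p = 0.983) in edgeR's quasi-likelihood test, and *Maff* had between 22 and 38 counts in a mouse.

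Other targets of NRF2 and other antioxidant enzymes were described from a pair of longer lists. Of 22 further NRF2 targets, 21 had enough counts to be tested. In edgeR's quasi-likelihood test 0 of them had an adjusted p below 0.05, against 0.098% of all genes tested. An unadjusted p below 0.05 was found in 0 of the 21, against 5.39%, and 0 of the 21 passed with DESeq2. Their median log2 fold change was -0.02, and 10 were above and 11 below 0. In 1 of the 21, *Abcc1*, every *Slc39a8*-NSKO mouse lay above every control mouse (log2 fold change 0.14, standard error 0.0751). No gene of this list lay below in every one, and among all genes tested 10.3% did not overlap. *Txnrd1*, the cytosolic thioredoxin reductase, was at 61.5 ± 3.47 CPM in control and 61.5 ± 1.43 CPM in *Slc39a8*-NSKO mice (SD, n = 3 each), with a 95% interval of the log2 fold change from -0.13 to 0.13. The genes of this list with the highest levels per length were those of the ferritin chains *Fth1* (342 RPKM, log2 fold change -0.07) and *Ftl1* (232 RPKM, log2 fold change -0.05) and the glutathione transferase gene *Gstm1* (92.7 RPKM, log2 fold change 0.05).

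Of 28 other antioxidant genes, all were tested and 0 had an adjusted p below 0.05 in edgeR's quasi-likelihood test or with DESeq2, with a median log2 fold change of -0.01 and 12 above and 16 below 0. *Sod2*, the manganese-dependent dismutase, had counts of 3515, 2299, and 2557 for control mice 1 to 3 and of 3293, 3198, and 3107 for *Slc39a8*-NSKO mice 1 to 3. These correspond to 165 ± 4.89 and 165 ± 0.449 CPM (SD, n = 3 each), and the 95% interval of the log2 fold change ran from -0.11 to 0.11. Transcript levels do not report how much manganese the enzyme holds. *Glrx*, which encodes the cytosolic glutaredoxin, was the 1 gene of this list with an unadjusted p below 0.05, against 5.39% of all genes tested. Beside *Glrx*, *Gpx1*, a selenium-dependent glutathione peroxidase, lay higher in every *Slc39a8*-NSKO mouse (log2 fold change 0.13, standard error 0.0621), and *Prdx6*, a peroxiredoxin, lay lower in every one (-0.08, standard error 0.0504). These are 2 genes above and 1 below among the 28, against 10.3% of all genes tested without overlap, and *Gpx1* and *Prdx6* were singled out after their values were seen. *Glrx* was at 16.9 ± 0.81 CPM in control and 19.4 ± 0.932 CPM in *Slc39a8*-NSKO mice (SD, n = 3 each), without overlap of the genotypes, and its log2 fold change was 0.20 (standard error 0.0872, unadjusted p = 0.0372, adjusted p = 0.908 from the same test). The highest levels per length in this list were those of the selenoprotein *Gpx4* (149 RPKM) and the peroxiredoxins *Prdx5* (137 RPKM) and *Prdx2* (76.2 RPKM), with log2 fold changes between -0.04 and 0.01.

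**Figure D4:**
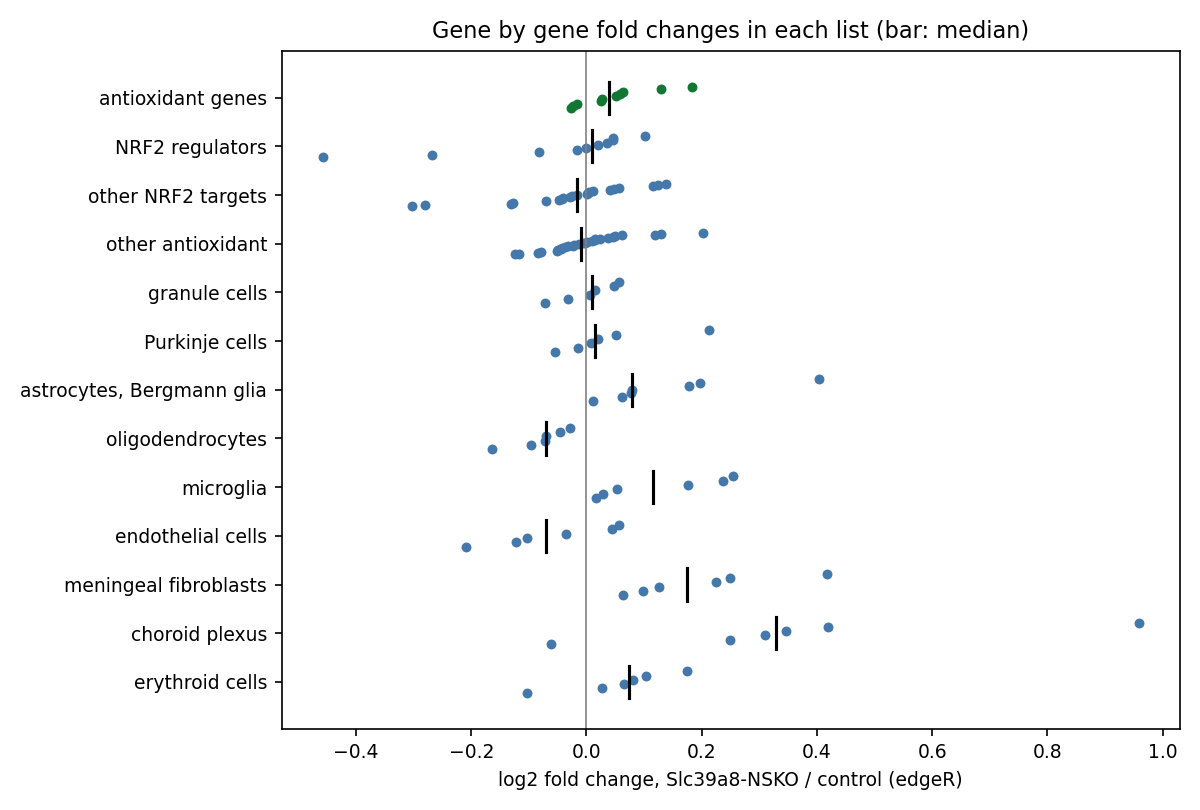
Log2 fold change (*Slc39a8*-NSKO over control) of each tested gene in the antioxidant list (green), in the other lists of the pathway, and in lists of cell type markers (all blue), with the median of each list as a black bar. The medians of the antioxidant and pathway lists lie between -0.02 and 0.04, and those of the choroid plexus (0.33), meningeal fibroblast (0.17), and microglia (0.12) markers lie farther to the right; heart markers are not plotted.

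Since the antioxidant genes are used by several cell types, the markers of those cells were measured in the same mice. The summed level of 7 markers of astrocytes and Bergmann glia was 2658, 2397, and 2783 CPM in control mice 1 to 3 and 2859, 2830, and 2847 CPM in *Slc39a8*-NSKO mice 1 to 3. The genotypes did not overlap in this sum, and with 3 mice against 3 no such separation can have an exact permutation p below 0.1. Singly, 3 of the 7 markers (*Gfap*, *Aqp4*, and *Gja1*) lay higher in every *Slc39a8*-NSKO mouse, against 5.07% of all genes tested. All 7 had a log2 fold change above 0, as did 8243 of the 16330 genes tested. The values ran from 0.01 for *S100b* to 0.40 for *Gfap* (edgeR quasi-likelihood adjusted p = 0.301). Summed levels also lay higher in every *Slc39a8*-NSKO mouse for 6 microglia markers (81.1 to 92.1 CPM in control and 96.0 to 98.1 CPM in *Slc39a8*-NSKO mice) and for 6 markers of meningeal fibroblasts (87.5 to 90.7 and 95.8 to 113 CPM). Likewise, 6 markers of heart muscle summed to 2.17 to 3.13 CPM in control and 11.97 to 14.3 CPM in *Slc39a8*-NSKO mice. All 6 microglia markers had a log2 fold change above 0, from 0.02 for *C1qb* to 0.25 for *Csf1r*. All 6 fibroblast markers did as well, from 0.06 for *Lum* to 0.42 for *Col3a1*. Singly, 1 of the 6 microglia markers (*Csf1r*) lay higher in every *Slc39a8*-NSKO mouse. So did 2 of the 6 fibroblast markers (*Col1a1* and *Col3a1*), against 5.07% of all genes tested. No marker of either list passed the threshold. In edgeR's quasi-likelihood test 3 heart muscle genes passed, *Myh6* (4.43, adjusted p = 0.000629), *Actc1* (3.05, adjusted p = 0.0223), and *Tnnt2* (2.15, adjusted p = 0.0338). They were 3 of the 4 genes that were called higher among all genes tested. Of the other heart markers, *Tnni3* (log2 fold change 0.27) overlapped between the genotypes. *Myl2* lay higher in every *Slc39a8*-NSKO mouse (log2 fold change 2.76, adjusted p = 0.0628 from the same test). None of the markers of astrocytes, microglia, or fibroblasts was at 0 in any mouse, while *Myl7*, which was not tested, was at 0 in every control mouse. The called heart genes had few counts in control mice 1 to 3. These were 0, 4, and 6 for *Myh6*, 15, 8, and 0 for *Actc1*, and 10, 12, and 5 for *Tnnt2*. In *Slc39a8*-NSKO mice 1 to 3 the counts were 73.8, 92.9, and 91, then 71, 92, and 57, and then 40, 51, and 49. Their large fold changes therefore rest on control values near 0. The summed markers of granule cells, Purkinje cells, oligodendrocytes, endothelial cells, choroid plexus, and erythroid cells overlapped between the genotypes. The choroid plexus sum was mostly *Ttr*, with 891 of 950 CPM on average in control mice. Of the 6 choroid plexus markers, 5 had a log2 fold change above 0 and 3 an unadjusted p below 0.05 in edgeR's quasi-likelihood test. Those 3 were higher in *Slc39a8*-NSKO mice, against 2.25% of all genes tested. Only *Folr1* lay higher in every *Slc39a8*-NSKO mouse (log2 fold change 0.96, adjusted p = 0.228 from the same test). No marker of this list passed the threshold. The part of any of these cell types in the values of *G6pdx*, *Nqo1*, and *Gclc* was not tested.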

How the data were processed

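Cerebellar RNA of 3 control mice and 3 *Slc39a8*-NSKO mice was read by paired-end sequencing of oligo-dT primed cDNA. The methods name a library kit that does not mark strand and the labels a directional kit. The authors aligned the reads with STAR to an Ensembl mouse reference, and the submitters' processing notes also list FastQC, RSEM, DESeq2, and the build mm10, with no versions. The values deposited by the authors are expected counts (estimated counts) per gene and mouse, with no normalization; whether counting used the strand is not given in the sources used here.

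Counts were rounded, and the 92 spike-in entries (at most 3.46e-05% of a library) were left out. GENCODE vM21 of GRCm38 gave names, positions, and lengths for 53620 of 53715 genes, 51464 in the same version. The main test was edgeR 4.0.16 (quasi-likelihood, TMM, filterByExpr, no covariate, R 4.3.3) with Benjamini-Hochberg adjustment over all genes tested. CPM used TMM library sizes. RPKM divided CPM by the union of exons. Intervals are 95%, from the test's standard error. For a single value, 3 mice against 3 allow an exact permutation p of at least 0.1. The methods state 3 mice per genotype as biological replicates, while another passage of the study speaks of technical triplicates. If the libraries of a genotype are not separate mice, the p values measure technical spread only. Counts of any pair of libraries differed by more than sampling noise (chi-square per degree of freedom at least 4.01). Within a genotype the lowest value was 4.2, for control libraries 2 and 3. Libraries prepared separately from 1 mouse can also differ by more than sampling noise, so these values cannot tell whether the libraries were separate mice. Alternatives were DESeq2 1.42.0, RLE, no filter, 10 counts in every mouse, a block for the replicate number, leaving out each mouse in turn, and the longest transcript as length.

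The members and the lists were chosen with earlier results of these data known. Named are all members and regulators, *Slc39a8*, *Txnrd1*, *Sod2*, list genes with an unadjusted p below 0.05 or among the 3 highest in RPKM, and markers from cell lists whose sums did not overlap. *Ikbkg*, *G6pd2*, *Gm17494*, and *Gm6061* were added because they overlap or copy a member, and *Nnt*, *Abcc1*, *Gpx1*, *Prdx6*, *Ttr*, and *Folr1* after their values were seen.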

Additional observations from a re-analysis of the deposited data

How the results depend on the processing

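The count of antioxidant genes past the threshold stayed at 0 in all 11 alternatives, as did those of the regulators, the other NRF2 targets, and the other antioxidant genes, and the lowest adjusted p of any member was 0.652 (*G6pdx* with the replicate block). Of the 110 fold changes of members under an alternative, 6 changed direction, all when 1 mouse was left out. With each mouse left out the log2 fold change ranged from -0.13 to 0.067 for *Hmox1*, from -0.017 to 0.080 for *Srxn1*, from -0.14 to 0.14 for *Slc7a11*, and from -0.012 to 0.063 for *Gsr* (below 0 without *Slc39a8*-NSKO mouse 3). The 1 member with an unadjusted p below 0.05 became 0 with DESeq2, with no filter on low counts, and with each mouse left out (0 to 0).

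Over all genes, 16 passed (12 lower, 4 higher), against 37 (29 lower, 8 higher) with DESeq2 and 178 (112 lower, 66 higher) with no filter. With 10 counts in every mouse 0 higher genes passed, since that filter leaves out genes with low counts in control mice. With each mouse left out, 9 (without *Slc39a8*-NSKO mouse 2) to 38 (without control mouse 1) passed, 7 to 27 lower and 2 to 11 higher. With the replicate block 41 genes passed (32 lower, 9 higher), and the cause of these differences was not tested. Mice with the same number deviated together by r = 0.142, 0.116, and 0.0104 across genes, and mouse 3 of the control group correlated more with *Slc39a8*-NSKO mouse 1 (0.0355), while mice 1 and mice 2 of both groups correlated best with their own number. The labels do not say that a number marks a litter, batch, or day, so the numbers were not used to pair the mice, and whether same-numbered mice shared a batch was not tested. *Hmox1* had the fewest counts of the members (52 to 74 in a mouse) and the widest interval.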

Other observations

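*Nnt*, which encodes the mitochondrial transhydrogenase that makes NADPH for glutathione recycling and is known to be defective in C57BL/6J mice, has 2 entries in the table that cover nearly the same stretch of chromosome 13. The study's methods give C57BL/6J for both parent lines. *Nnt* was singled out after its values were seen. The entry ENSMUSG00000025453.18 had counts of 150, 117, and 51.8 for control mice 1 to 3 and of 180, 48.9, and 124 for *Slc39a8*-NSKO mice 1 to 3. The entry ENSMUSG00000116207.1 had between 162 and 206 counts in a mouse. The sum of both was 17.0 ± 2.83 CPM in control and 15.4 ± 2.40 CPM in *Slc39a8*-NSKO mice (SD, n = 3 each), and the genotypes overlapped. None of the counts of the single entries was whole, so that the reads were divided between the entries, and relative to its mean the first entry varied more between mice than the sum did.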
